A study of Mus musculus with 6 samples.

Results

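Bone matrix and mineralization genes were examined for acetylated histone H3 (H3ac) in mouse mesenchymal stem cells (MSCs), the stromal cells from which osteoblasts form. The set held 10 genes: Alpl, Phospho1, Enpp1, Spp1, Ibsp, Dmp1, Sparc, Postn, Omd and Bglap. Its regions were all rows of the deposited table that overlapped the annotated body of one of these genes (GENCODE vM21, mm10) extended by 5 kb on both sides. This gave 11 of the 24431 regions, from 8 of the 10 genes, and Ibsp and Bglap had no region at all. CUT&RUN, in which an antibody tethers a nuclease to marked chromatin and the cut DNA is sequenced, was run on 6 libraries in 3 groups of 2. Young MSCs were from mice aged 3 to 5 months and Old MSCs from mice aged 18 to 22 months, both without treatment. OldAcetate MSCs, from mice of the same age as Old, had received 5 mM sodium acetate for 3 days, and all 3 groups were cultured in 2% oxygen. The labels do not say whether the 2 libraries of a group came from separate mice or cultures, so p-values measure only the spread between these libraries, and neither strain nor sex is given.

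Bone forms when osteoblasts secrete a collagen matrix, the osteoid, and mineral is then laid down in it. Alpl encodes tissue-nonspecific alkaline phosphatase, which splits pyrophosphate, an inhibitor of mineral growth. Enpp1 encodes an ectoenzyme that makes pyrophosphate, and Phospho1 a phosphatase that supplies phosphate inside matrix vesicles. Spp1 (osteopontin), Ibsp (bone sialoprotein) and Dmp1 are acidic phosphoproteins of the SIBLING family, which bind mineral and integrins and lie in one gene cluster. Sparc (osteonectin) binds collagen and calcium, Postn (periostin) is a matricellular protein of the periosteum, Omd (osteomodulin) is a small leucine-rich proteoglycan, and Bglap (osteocalcin) is a late product of mature osteoblasts. Runx2 is the master transcription factor of the osteoblast lineage, and acetylation of H3 accompanies open promoters and enhancers.

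The 250 bases before the RefSeq start site (GRCm38.p6) were read for all 10 genes. RefSeq gives 14 starts in all, and the counts use, for each gene, the start nearest to the GENCODE one. Those of Spp1, Enpp1, Dmp1 and Bglap are shown because they were the 4 of the 10 that held the core letters of a RUNX site, ACCACA or its reverse complement TGTGGT. This hexamer stood in 14.0% of all 32851 promoter windows of the same length. Spp1 and Enpp1 had an H3ac region over the start, while Dmp1 and Bglap did not. Capitals mark ACCACA and the TATA letters TATAAA, which were also searched on both strands (TTTATA) and stood in 12.4% of all windows. Each sequence is on the gene's own strand, 5′ to 3′, and ends at the base before the start site.
Spp1, chr5:104434861-104435110, plus strand: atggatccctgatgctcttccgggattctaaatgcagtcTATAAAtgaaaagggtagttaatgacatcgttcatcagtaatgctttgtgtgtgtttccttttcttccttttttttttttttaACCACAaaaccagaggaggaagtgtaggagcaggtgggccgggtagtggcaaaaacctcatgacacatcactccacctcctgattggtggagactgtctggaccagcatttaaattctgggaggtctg
Enpp1, chr10:24712160-24712409, minus strand: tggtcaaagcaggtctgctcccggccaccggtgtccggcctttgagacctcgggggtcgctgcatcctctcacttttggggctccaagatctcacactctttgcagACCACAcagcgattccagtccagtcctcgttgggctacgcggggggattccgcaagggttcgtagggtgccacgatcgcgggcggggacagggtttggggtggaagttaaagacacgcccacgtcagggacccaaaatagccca
Dmp1, chr5:104202367-104202616, plus strand: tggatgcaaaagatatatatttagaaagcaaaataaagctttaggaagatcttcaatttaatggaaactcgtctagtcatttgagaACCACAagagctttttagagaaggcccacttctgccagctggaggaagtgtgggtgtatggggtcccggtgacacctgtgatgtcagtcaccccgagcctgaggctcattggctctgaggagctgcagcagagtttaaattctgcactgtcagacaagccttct
Bglap, chr3:88384467-88384716, minus strand: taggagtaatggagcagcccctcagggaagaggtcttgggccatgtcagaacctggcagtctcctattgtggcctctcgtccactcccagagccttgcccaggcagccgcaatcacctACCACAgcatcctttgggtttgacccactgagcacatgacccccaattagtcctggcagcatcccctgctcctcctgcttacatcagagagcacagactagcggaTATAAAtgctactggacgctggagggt
The ACCACA match began 128 bases before the start in Spp1, 144 in Enpp1, 164 in Dmp1 and 132 in Bglap. The TATA letters began 27 bases before the Bglap start and 211 before the Spp1 start. They also occurred 26 bases before the Postn start and, as TTTATA, 28 before the Ibsp start, so 4 of the 10 windows held them and 2 held both motifs. A match is a description of letters only.

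The promoters differed in CpG content. The windows of the enzymes Phospho1, Alpl and Enpp1 held 34, 20 and 17 CpG dinucleotides, against a median of 6 over all promoters and an interquartile range from 2 to 16. The second, downstream start of Alpl, which also lay under a region, held 4, with the letters TTTATA 192 bases before it. The windows of the other 7 genes held 1 to 4, below the median: 4 each in Bglap, Sparc and Postn, 3 in Spp1 and Dmp1, 2 in Ibsp and 1 in Omd. All 3 CpG-rich promoters lay under an H3ac region, and so did 4 of the 7 CpG-poor ones (Spp1, Sparc, Postn and Omd). The RefSeq start of Sparc is 3103 bp from the GENCODE start, but the Sparc region spans both.

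Levels are given in RPM, reads in a region scaled to the library total, with no division by length, and as RPM per kb where genes are compared. Library totals recovered from the values were 2163351 to 3039481 reads, and the median region held 31 to 56 reads. Over all regions the Old libraries read lower than the Young ones in RPM before any centring, with a median log2 difference of -0.35. The median was 0.24 for OldAcetate vs Old and -0.11 for OldAcetate vs Young. Group differences were therefore also taken relative to these shifts, after each library was centred on its median deviation from the region means. The percent of reads inside regions was 57.8% to 64.8% for Young, 45.9% to 49.9% for Old, and 56.3% to 57.3% for OldAcetate. It is the sum of these RPM values over all regions, so it restates the shift and is no separate measurement. Region names carry the letter codes AC, O and Y, which the labels do not define. Of all regions, 80.6% carried AC, O and Y, 12.1% AC and Y, 4.66% only Y and 2.53% O and Y. Only 4 regions carried AC and O, 3 only AC and 1 only O, so nearly all listed regions carried Y. What caused the shift, and its part in the differences given next, was not tested. Nor was the part of this choice of regions in the shift. In bulk cultures, fewer cells that carry the mark and less of it per cell cannot be told apart. RPM is scaled to the library total, so neither can be told apart from a technical difference in reads outside regions. Of 12 MSC marker genes, 12 had a region over the outermost annotated start, at 1.88 to 3.70 RPM per kb. Of the other markers, 0 of 6 endothelial, 3 of 10 hematopoietic and 3 of 6 osteoclast genes had one. The hematopoietic marker Csf1r had a region over another of its coding starts, which is not counted here. At the counted marker starts, the hematopoietic list had 1.78 to 2.56 RPM per kb and the osteoclast list 1.71 to 2.96. Both ranges overlapped that of the MSC list. The summed level there was 636 to 889 RPM per library for the MSC list. It was 49.9 to 67.1 RPM for the hematopoietic list and 36.6 to 55.9 RPM for the osteoclast list. These sums add 12, 3 and 3 starts without division by length, so they do not compare the level per start.

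In 7 of the 8 genes with regions, a region lay over the gene's start. The share of all genes with a region over the start was not counted. The counts of covered starts and promoters in this report therefore have no background beside them. The single region of Dmp1 missed it. The table lists only the regions that were called, so the absence of a region is not a measurement of zero acetylation.

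Among the enzymes, Enpp1 had the lowest level in Old relative to Young of the 11 regions. Its region covered the promoter and the first 5659 bp of the gene (chr10:24706501-24715000, 8500 bp). The values were 29.3 and 26.6 RPM for Young, 16.6 and 18.3 for Old, and 19.8 and 26.3 for OldAcetate. Both Old libraries lay below both Young libraries and below both OldAcetate libraries, and both OldAcetate libraries lay below Young. The means were 27.9 ± 1.93 RPM for Young, 17.5 ± 1.17 for Old and 23.1 ± 4.56 for OldAcetate (SD, n = 2 each), which put Old at 62.6% of Young and OldAcetate at 132% of Old. With the values as given, limma called Enpp1 lower in Old, at -0.66 ± 0.21 (SE) on the log2 scale with a Benjamini-Hochberg adjusted p of 0.0391. Relative to the shift of all regions, the difference was -0.31 ± 0.20 with a 95% interval from -0.71 to 0.09, and limma gave an unadjusted p of 0.123 and an adjusted p of 0.908.

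Alpl carried 3 regions, more than any other member, and they did not share one pattern over the libraries. The upstream region (chr4:137783001-137796500, 13500 bp) covered the start and 13384 bp of the gene. It measured 29.9 and 31.0 RPM for Young, 20.8 and 22.7 for Old, and 19.5 and 28.8 for OldAcetate. The Young libraries were above all 4 libraries from old mice, and the OldAcetate libraries lay on either side of Old. Old was at 71.3% of Young, a log2 difference of -0.48 as given and -0.13 ± 0.19 (SE) relative to the shift, with limma adjusted p-values of 0.102 and 0.967.

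The internal Alpl region (chr4:137764001-137774000, 10000 bp) covered the downstream alternative start that RefSeq places at 137766475. Its values were 24.7 and 12.7 RPM for Young, 18.5 and 16.3 for Old, and 24.5 and 17.1 for OldAcetate. Young replicate 1 was 1.95-fold above replicate 2, and all 3 groups overlapped. After centring, these 2 libraries differed by 0.77 on the log2 scale, a spread wider than in 97.0% of all regions in that group. The region had 75 and 31 reads in these libraries. The differences relative to the shift were 0.32 ± 0.23 (SE) for Old vs Young and 0.32 ± 0.23 for OldAcetate vs Young, with limma adjusted p-values of 0.918 and 0.974.

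The third Alpl region (chr4:137729001-137752500, 23500 bp) covered the last 10768 bp of the gene and reached into the neighbour Rap1gap, so its reads cannot be assigned to one gene. It measured 56.9 and 51.9 RPM for Young, 43.9 and 43.4 for Old, and 55.4 and 60.9 for OldAcetate. Old was below the other groups, at 80.2% of Young, and OldAcetate was at 133% of Old. Once centred, both OldAcetate libraries stood above all 4 others, with log2 differences of 0.17 ± 0.13 (SE) from Old and 0.21 ± 0.13 from Young. In limma the unadjusted p-values were 0.203 and 0.123 and the adjusted ones 0.896 and 0.974.

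Phospho1 had a short region over its start (chr11:95823001-95826500, 3500 bp), which also touched Zfp652. It held 10.5 and 14.3 RPM for Young, 8.32 and 9.55 for Old, and 11.4 and 7.92 for OldAcetate. Old was below Young, and OldAcetate spanned the Old values and overlapped the Young ones. These values rest on 18 to 35 reads per library, and at 18 reads counting error alone was 23.6% of the value. Old vs Young was -0.09 relative to the shift, with a 95% interval from -0.66 to 0.48. The region held 37.1 CpG per kb, more than 94.2% of all regions, against a median of 14.0.

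Among the SIBLING genes the regions were uneven along the cluster on chromosome 5. Spp1 lay almost whole, 99.2% of its body, in a 15000 bp region (chr5:104426001-104441000). The values were 41.5 and 29.4 RPM for Young, 25.0 and 31.8 for Old, and 30.9 and 30.4 for OldAcetate. Young replicate 1 was the highest library, while Young replicate 2 lay inside the range of Old and below OldAcetate. Old was at 80.1% of Young, and the log2 difference relative to the shift was 0.05 ± 0.18 (SE), with a 95% interval from -0.31 to 0.40 and a limma adjusted p of 0.990.

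A second region counted with Spp1 only because it began 3951 bp beyond the gene's end (chr5:104445001-104472000, 27000 bp), and it covered the start of Pkd2, the polycystin-2 gene. It measured 81.9 and 68.2 RPM for Young, 62.4 and 59.7 for Old, and 74.6 and 70.9 for OldAcetate, with Old below both other groups. The differences relative to the shift were 0.06 for Old vs Young and 0.01 for OldAcetate vs Old. On the other side of the 5 kb limit, the nearest region lay 10679 bp from Omd over the start of Ogn (osteoglycin), with 30.6 and 23.7 RPM for Young, 17.1 and 16.3 for Old, and 27.2 and 24.6 for OldAcetate.

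Dmp1, a product of osteocytes and a regulator of phosphate, had its region inside the gene body (chr5:104208001-104213500, 5500 bp), over 1939 bp of exon and no start site. It measured 11.2 and 10.2 RPM for Young, 12.9 and 7.56 for Old, and 9.41 and 10.0 for OldAcetate. The Old libraries were the highest and the lowest of all 6, and both OldAcetate libraries were just below both Young libraries. The region had 19 to 34 reads per library, and the values within Old differed 1.71-fold. After centring, the log2 difference within Old was 0.62, wider than in 88.4% of regions. Its differences had the widest intervals beside those of Phospho1, from -0.32 to 0.81 for Old vs Young and from -0.83 to 0.30 for OldAcetate vs Old. Dmp1 was also the only member whose region name carried the letters O and Y without AC, a code found in 2.53% of all regions, while the other 10 carried AC, O and Y, as did 80.6% of all regions. The labels do not define these codes, and the OldAcetate values at Dmp1 were 94.7% of Old and 90.8% of Young.

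Ibsp had no region within its body or 5 kb on either side. The nearest lay 20532 bp away within Mepe (chr5:104332001-104335500), which encodes a further SIBLING protein, and it held 8.23 and 6.94 RPM for Young, 5.08 and 4.77 for Old, and 7.06 and 9.59 for OldAcetate. This region covered no start site either. Dspp, the dentin member of the family, had no region. The longest region of the cluster was intergenic, 40000 bp between Mepe and Spp1 (chr5:104369501-104409500), 25618 bp before the Spp1 start, and was chosen for description after its values were seen. It measured 118 and 116 RPM for Young, 101 and 87.1 for Old, and 98.5 and 115 for OldAcetate, so OldAcetate overlapped Old and lay below Young.

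**Figure D1:**
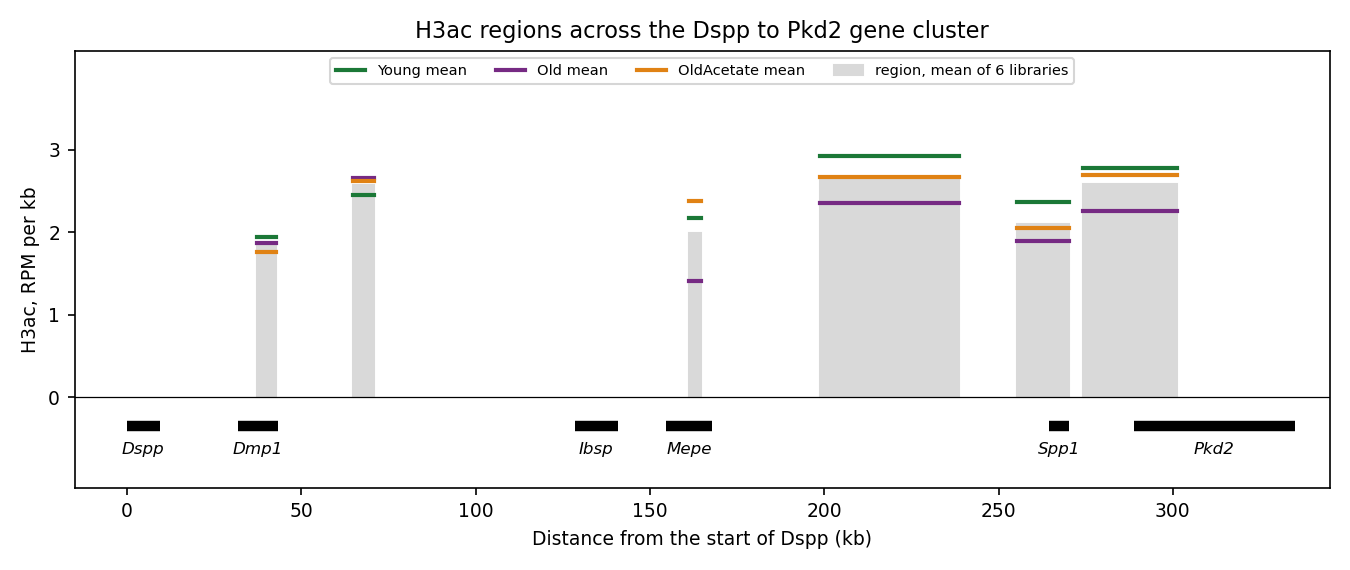
H3ac regions across the SIBLING gene cluster on mouse chromosome 5. The x axis gives distance from the start of Dspp in kb, the y axis H3ac in RPM per kb; grey bars are the regions with the mean of 6 libraries, coloured lines the means of the 2 libraries of each group, and black bars below 0 are gene bodies. Ibsp and Dspp have no region, the Dmp1 region lies inside the gene, and only Spp1 and Pkd2 have a region over the start.

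Among the matrix proteins, Sparc lay in the broadest domain of the set. Its region (chr11:55390501-55447500) was 57000 bp long, and only 88 of all regions were as long or longer. The region covered the whole gene of 28684 bp and reached into the neighbour Atox1, so its reads cannot be assigned to one gene. The values were 168 and 161 RPM for Young, 131 and 126 for Old, and 164 and 151 for OldAcetate. Old was below both other groups, which overlapped each other. The means were 164 ± 5.14 RPM for Young, 129 ± 3.68 for Old and 158 ± 8.89 for OldAcetate (SD, n = 2 each). As given, limma called Sparc lower in Old, by a log2 difference of -0.35 ± 0.12 (SE), adjusted p 0.0428. Sparc was thus at 78.4% of Young, while the sum over all regions was at 78.1%. Centred, its difference was 0.00 ± 0.08, with a 95% interval from -0.17 to 0.17, the narrowest of the 11 regions. OldAcetate was at 123% of Old and 96.1% of Young.

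Postn had a region over its start (chr3:54357001-54364500, 7500 bp). It measured 27.3 and 22.1 RPM for Young, 19.0 and 15.5 for Old, and 21.8 and 26.7 for OldAcetate. Old was the lowest group, at 69.8% of Young, and OldAcetate was at 141% of Old, the highest such ratio in the set. With centring, both Old libraries still lay below both libraries of each other group, with differences of -0.15 ± 0.20 (SE) for Old vs Young and 0.24 ± 0.20 for OldAcetate vs Old. In limma the unadjusted p-values were 0.439 and 0.226 and the adjusted ones 0.963 and 0.904.

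Omd had a region over its start (chr13:49578501-49589000, 10500 bp), which lies within the longer gene Cenpp. It held 34.5 and 35.5 RPM for Young, 30.0 and 27.8 for Old, and 38.6 and 30.4 for OldAcetate. Old was below Young at 82.6%, and below OldAcetate by a narrow margin. Omd stands in a row of small leucine-rich proteoglycan genes with Ecm2, Aspn and Ogn, and each of these 4 genes had a region over its start. Its region was among the poorest in CpG, with 6.95 per kb against the median of 14.0.

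Bglap and its neighbours Bglap2 and Bglap3 had no region. The nearest to Bglap lay 22037 bp away over the start of Pmf1 (chr3:88406501-88411500), with 18.8 and 14.7 RPM for Young, 10.6 and 15.1 for Old, and 18.5 and 14.6 for OldAcetate. The groups overlapped there. The Bglap promoter printed above, with its ACCACA and TATA letters, therefore lay outside every listed region, as did the promoters of Ibsp and Dmp1.

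**Figure D2:**
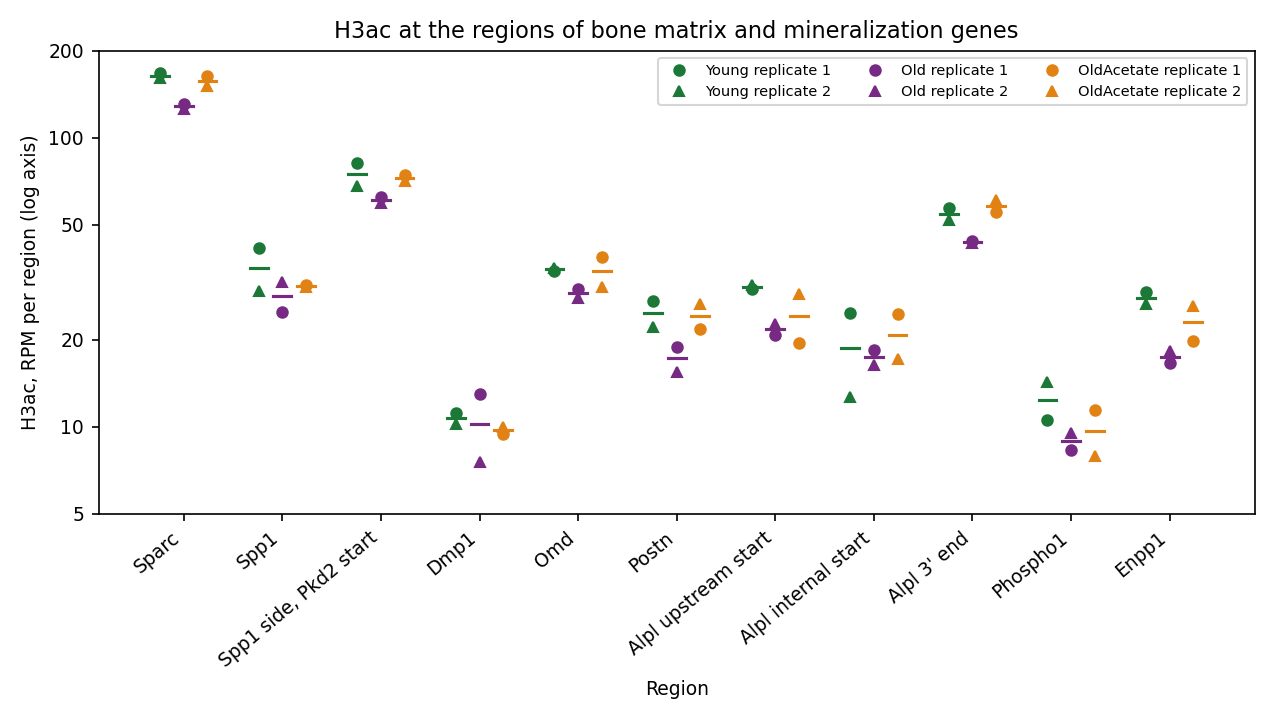
H3ac at the 11 regions of the bone matrix and mineralization genes. The y axis gives RPM per region on a log axis, circles and triangles are replicates 1 and 2, and short lines are group means (n = 2 libraries). Sparc lies highest at 126 to 168 RPM and Dmp1 and Phospho1 lowest, at 7.56 to 14.3 RPM. The replicates lie farthest apart at the internal Alpl region in Young, 1.95-fold.

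Per length the 11 regions ran from the 3.09th percentile of all regions at Dmp1 to the 72.4th at Omd. The mean over 6 libraries ran from 3.13 RPM per kb at Omd through 2.95 at Phospho1, 2.94 at Postn, 2.68 at Enpp1, 2.63 at Sparc and 2.58 at the Pkd2 side of Spp1. It went on with 2.22 at the third Alpl region, 2.10 at Spp1, 1.90 and 1.89 at the internal and upstream Alpl regions, and 1.86 at Dmp1. Each neighbour in this order overlapped the next over the 6 libraries, but regions farther apart did not always overlap. The lowest Omd library, at 2.65 RPM per kb, lay above every library of Dmp1 (at most 2.35) and of the Alpl regions (at most 2.59). Only the step from the Pkd2 side of Spp1 to the third Alpl region had the same sign in 6 of 6 libraries. The median region of the table was at 2.70 RPM per kb. Sparc, with the highest total, stood at the 45.9th percentile of all regions per kb and at the 99.6th in length, whereas Dmp1 and the upstream and internal Alpl regions lay in the lowest 4.03% per kb.

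Old vs Young asks whether H3ac at these genes differs with age. As given, all 11 regions had a log2 change below 0, as did 92.1% of all regions, and in 8 the Old libraries lay wholly below the Young ones, against 60.2% of all regions. No member was wholly higher in Old (1.29% of all regions). limma on the values as given called 2 members lower, Sparc and Enpp1, where it called 9.5% of all regions lower. Relative to the shift, limma called 0 of 11 (0.00819% of all regions), and 0 of 11 had an unadjusted p under 0.05 (5.54% of all regions). edgeR on the recovered reads, with scaling factors, also called 0. The share of all regions that edgeR called was not counted, so its counts here and below stand without that background. The median change of the members was 0.04 and that of all regions -0.00, and as given -0.31 and -0.35. After centring, 2 members were wholly lower in Old, Postn and Enpp1 (17.1% of all regions), and 0 wholly higher (16.9%). The 7 regions over a member's start had a median of -0.44 as given, against -0.36 for the 11018 regions over any coding start.

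**Figure D3:**
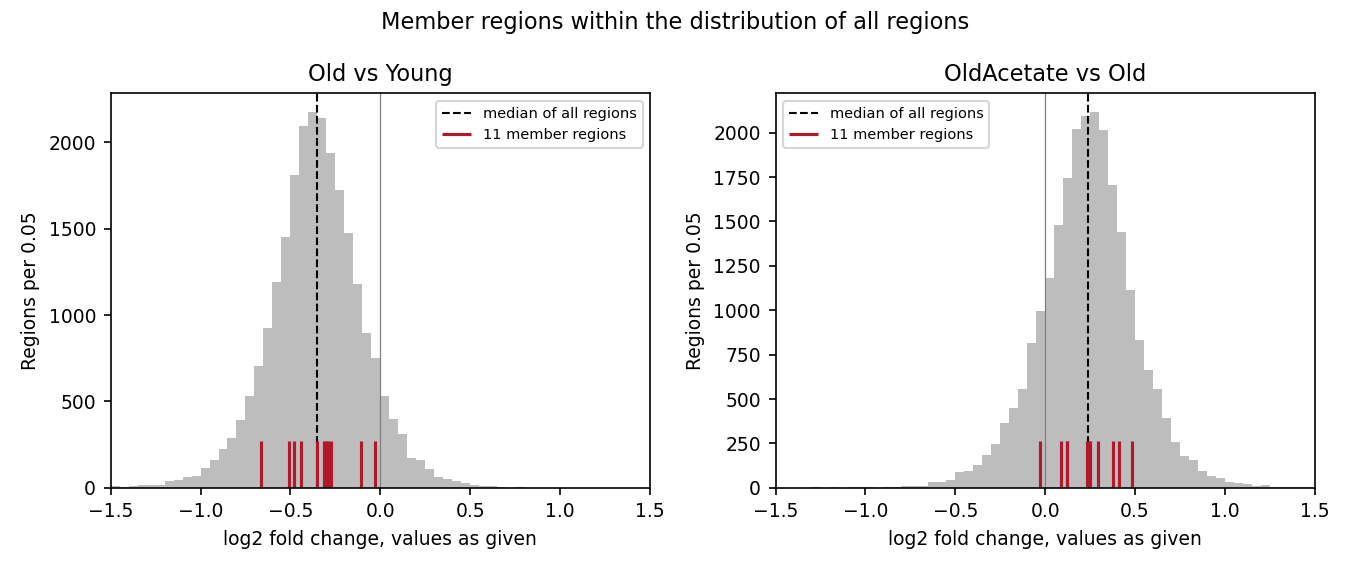
Log2 fold changes of all 24431 regions (grey, regions per bin of 0.05) with the 11 member regions as red marks, values as given, for Old vs Young and OldAcetate vs Old. The dashed lines are the medians of all regions, -0.35 and 0.24. The members spread around these medians, from Enpp1 at -0.66 to the internal Alpl region at -0.03 in Old vs Young, and from Dmp1 at -0.03 to Postn at 0.48 in OldAcetate vs Old.

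OldAcetate vs Old asks whether acetate changes H3ac in old cells. In 6 of the 11 regions the OldAcetate libraries lay wholly above the Old ones: the third Alpl region, the Pkd2 side of Spp1, Sparc, Postn, Omd and Enpp1, against 47.1% of all regions. No member was wholly lower (3.46%). As given, limma called 0 members higher, where it called 0.311% of all regions. Relative to the shift it called 0 of 11 (0.0% of all regions), and 0 of 11 had an unadjusted p under 0.05 (6.24%). With edgeR on the recovered reads and scaling factors the count was 0 too. The members' median was 0.00 and that of all regions 0.00, and as given both were 0.24. After centring, the third Alpl region and Postn were wholly higher (16.7% of all regions) and 0 wholly lower (17.2%).

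OldAcetate vs Young sets treated old cells beside young ones. This comparison shares its libraries with the first 2, so the 3 are not independent. As given, 3 members were wholly lower in OldAcetate, the upstream Alpl region, Dmp1 and Enpp1, against 29.8% of all regions, and 0 were wholly higher (7.6%). limma on the values as given called 0 lower (0.0% of all regions). Relative to the shift, limma called 0 of 11 (0.0%), with 0 of 11 at an unadjusted p under 0.05 (5.08%), and edgeR with scaling factors called 0. The upstream Alpl region was at 79.2% of Young, Enpp1 at 82.6% and Dmp1 at 90.8%. Their differences relative to the shift were -0.25 ± 0.19, -0.17 ± 0.20 and -0.02 ± 0.28 (SE). After centring, 0 members were wholly lower (18.1% of all regions) and 1 wholly higher, the third Alpl region (17.7%).

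**Figure D4:**
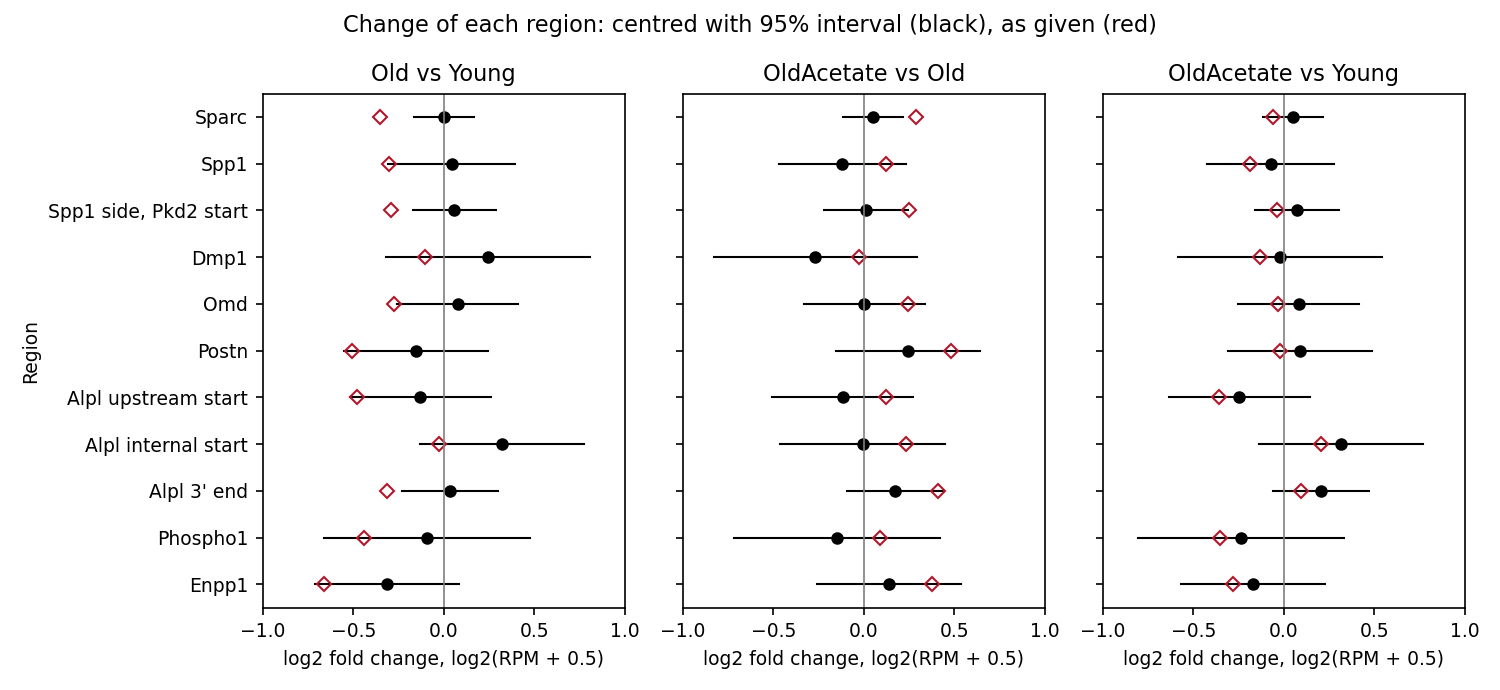
Log2 fold change of each region in the 3 comparisons, on the log2(RPM + 0.5) scale. Black points with lines are differences relative to the shift of all regions with 95% intervals from limma, and red diamonds are the values as given. Every black interval crosses 0, while the red diamonds of Old vs Young all lie below it.

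Summed over the 11 regions, 181500 bp, the level was 515.5 and 462 RPM for Young, 389 and 379 for Old, and 470.1 and 461 for OldAcetate. The Old libraries lay below the others, and OldAcetate replicate 2 just below Young replicate 2. The means were 489 ± 37.6, 384 ± 7.16 and 465 ± 6.51 RPM (SD, n = 2 each). Old stood at 78.5% of Young, where all regions together stood at 78.1%. OldAcetate was at 121% of Old and 95.2% of Young, beside 119% and 92.6% for all regions. As a share of the reads in regions, the members held 0.798 ± 0.00352 per mille in Young, 0.802 ± 0.0323 in Old and 0.820 ± 0.00122 in OldAcetate. For sets of 2 libraries the smallest p of the exact permutation test, two-sided, is 0.333.

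A list of 30 further matrix genes, among them collagens, proteoglycans, collagen-processing enzymes and phosphate transporters, gave 39 regions from 25 genes. Lum, Dspp, Phex, Bglap2 and Bglap3 had none. In limma relative to the shift, 0 of 39 were called in any comparison, and the medians were -0.02 for Old vs Young, 0.05 for OldAcetate vs Old and 0.03 for OldAcetate vs Young. At an unadjusted p under 0.05 the counts lower and higher were 1 and 0, 2 and 1, and 2 and 3, where 5.54%, 6.24% and 5.08% of all regions passed in either direction. edgeR with scaling factors also called 0 of 39 in each comparison. As given, limma called 13 of 39 lower in Old than in Young, where it called 9.5% of all regions lower. edgeR without factors called 13 as well, but its share of all regions was not counted. Both called 0 of 39 in the other comparisons. On the same values 32 of 39 regions were wholly lower in Old than in Young (60.2% of all regions), and 27 wholly higher in OldAcetate than in Old (47.1%).

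With none called after centring, the 2 regions of this list with the lowest p in each comparison are described. Ifitm5, an osteoblast membrane protein gene that shares its region with Ifitm2 and Pgghg, read 87.5 and 77.6 RPM for Young, 50.8 and 57.3 for Old, and 76.6 and 70.9 for OldAcetate. Old lay below both other groups, with a difference relative to the shift of -0.26 ± 0.12 (SE) from Young and a limma adjusted p of 0.894. Aspn (asporin) read 57.2 and 45.3 RPM for Young, 31.4 and 33.8 for Old, and 44.0 and 43.8 for OldAcetate, with a difference of -0.29 ± 0.15 and the same adjusted p. In OldAcetate vs Old, Dcn (decorin) had 16.6 and 15.5 RPM in Old and 12.8 and 12.5 in OldAcetate. The Ankh region ran over the end of this transporter gene and beyond. It had 18.5 and 17.5 RPM in Old and 29.2 and 28.8 in OldAcetate. OldAcetate lay below Old at Dcn and above it at Ankh. The differences were -0.57 ± 0.23 and 0.44 ± 0.19 (SE) with limma adjusted p-values of 0.736 and 0.769, and neither passed. In OldAcetate vs Young, Thbs1 (thrombospondin 1) read 79.6 and 57.6 RPM in Young and 84.3 and 73.4 in OldAcetate, groups that overlap. Fn1 (fibronectin) read 54.3 and 45.7 RPM in Young and 41.3 and 28.8 in OldAcetate, which lay below. Relative to the shift, Thbs1 differed by 0.33 ± 0.12 and Fn1 by -0.41 ± 0.16, both at a limma adjusted p of 0.964.

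The transcription factors of the osteoblast lineage had regions throughout. All 12 of 12 listed genes had a region over the start, without a share of all genes to set beside it. They held 32 regions in all. limma relative to the shift called 0 of 32 in each comparison, with medians of 0.01, 0.02 and 0.02 in the order above. At an unadjusted p under 0.05 the counts lower and higher were 1 and 1, 0 and 1, and 2 and 1, and edgeR with scaling factors called 0. The shares of all regions under 0.05 were 5.54%, 6.24% and 5.08%. As given, limma called 2 of 32 lower in Old than in Young, where it called 9.5% of all regions lower. edgeR without factors called 2, and its share of all regions was not counted. On these values 21 of 32 were wholly lower in Old than in Young (60.2% of all regions) and 21 wholly higher in OldAcetate than in Old (47.1%).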

How the data were processed

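H3ac CUT&RUN values were analysed for 6 MSC libraries, grouped by their labels. The deposited table holds 1 column per library with RPM for regions listed by the authors. Although its name says RPKM, region length was not used: all values (100%) in a column were whole multiples of 1 step, within a tolerance of 0.01, from which whole reads and library totals were recovered. The submitters' processing notes name mm10, Bowtie2 and Picard. The region caller, filters and use of the added yeast DNA are not given in the sources used here.

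Every library was centred on its median deviation from the mean of each region, and limma 3.58.1 (R 4.3.3) was fitted to log2(RPM + 0.5), a scale that understates changes of low regions. The fit held group means of all 6 libraries with eBayes (trend, robust) and Benjamini-Hochberg adjustment over 24431 regions at 0.05. The steps were run on simulated data with changes larger than those at the members, in regions above the median level. That run does not show whether changes of the members' size would be called. The genes and lists were chosen with earlier results of these data known. All 10 genes are named with every region. Of the further matrix genes, the regions called or, with none called, the 2 with the lowest p in each comparison are named, and of the transcription factors only counts are given. Ankh was matched to the annotation symbol Ank. Start sites and promoter sequences came from RefSeq (GRCm38.p6), and 10 of 10 genes matched. Alternatives were pseudocounts of 0.1 and 1, no centring, quantile normalization, a fit without the lowest 25% of regions, a replicate block, only the compared groups, eBayes without trend and robust, each library left out, edgeR 4.0.16 on the recovered reads, and extensions of 0, 10 and 50 kb. Plots were made in Python 3.11.15 (matplotlib 3.10.9). Precision is limited by read depth, and intervals from reads cover counting error only.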

Additional observations from a re-analysis of the deposited data

How the results depend on the processing

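The count of 0 of 11 called regions held in every comparison under all alternatives on centred or quantile-normalized values, and the 2 calls in Old vs Young appeared only without centring. These were Sparc and Enpp1, as given in limma and without scaling factors in edgeR, which called 2 as well. The share of all regions that edgeR called was not counted. Replicate numbers did not pair the libraries (r of the replicate differences 0.0093 for Young and Old, -0.034 for Young and OldAcetate, -0.043 for Old and OldAcetate), and the fit with the replicate block called 0 members in each comparison, with the median in Old vs Young at 0.04. Of the 33 single differences, none of which passed the test after centring, 17 changed sign under at least 1 other setting and 23 with at least 1 library left out, 27 in all, and the cause was not tested. Depth limits the low regions most, since Phospho1 and Dmp1 rest on 18 and 19 reads in their shallowest libraries.

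The members' median log2 difference was -0.31 as given and -0.33 in edgeR without factors for Old vs Young, 0.24 and 0.27 for OldAcetate vs Old, and -0.059 and -0.057 for OldAcetate vs Young. It was 0.10 for OldAcetate vs Old with an extension of 50 kb. In the order Old vs Young, OldAcetate vs Old and OldAcetate vs Young, 2, 2 and 1 of the 11 regions did not overlap between groups on centred values, where 16.7% to 18.1% of all regions did so in each direction. On the values as given, 19, 15 and 7 of 27 regions did not overlap, in either direction, with an extension of 50 kb. Of all regions, 60.2% were wholly lower and 1.29% wholly higher in Old vs Young. The shares lower and higher were 3.46% and 47.1% in OldAcetate vs Old, and 29.8% and 7.6% in OldAcetate vs Young. Leaving out 1 library gave medians from -0.032 (without Old replicate 2; -0.024 without Young replicate 1) to 0.065, from -0.010 to 0.089 (without OldAcetate replicate 2) and from 0.00074 (without OldAcetate replicate 2; 0.0042 without Young replicate 1) to 0.054. The summed level of OldAcetate ran from 90.3% of Young without Young replicate 2 to 101% without Young replicate 1, so its side of Young rests on that library.

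In Old vs Young, signs changed as given to -0.31 at the third Alpl region, -0.027 at the internal one, -0.30 at Spp1, -0.29 at its Pkd2 side, -0.10 at Dmp1, -0.35 at Sparc and -0.27 at Omd. In edgeR without factors these were -0.32, -0.14, -0.33, -0.31, -0.092, -0.35 and -0.28. Sparc, at 0.00 in the report, was -0.0090 with a pseudocount of 1 and -0.0055 without the lowest 25% of regions. With 1 library left out, values ran from -0.015 to 0.089 at the third Alpl region, -0.063 to 0.71 at the internal one, -0.19 to 0.28 at Spp1, -0.063 to 0.55 at Dmp1, -0.049 to 0.050 at Sparc, -0.024 to 0.18 at Omd and -0.38 to 0.20 at Phospho1.

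In OldAcetate vs Old, signs changed as given to 0.23 at the internal and 0.12 at the upstream Alpl region, 0.12 at Spp1 and 0.091 at Phospho1, and in edgeR without factors to 0.28, 0.13, 0.10 and 0.13. edgeR with factors gave 0.040 at the internal Alpl region, and quantile normalization -0.0040 at the Pkd2 side of Spp1 and -0.0083 at Sparc. With 1 library left out, values ran from -0.25 to 0.24 and -0.40 to 0.17 at the internal and upstream Alpl regions, -0.35 to 0.12 at Spp1, -0.016 to 0.043 at its Pkd2 side, -0.57 to 0.042 at Dmp1, -0.15 to 0.16 at Omd, -0.39 to 0.090 at Phospho1 and -0.072 to 0.35 at Enpp1.

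In OldAcetate vs Young, signs changed as given to -0.039 at the Pkd2 side of Spp1, -0.059 at Sparc, -0.023 at Postn and -0.030 at Omd, and in edgeR without factors to -0.050, -0.057, -0.048 and -0.0069. With 1 library left out, values ran from -0.068 to 0.70 and -0.53 to 0.043 at the internal and upstream Alpl regions, -0.23 to 0.091 at Spp1, -0.075 to 0.034 at Dmp1, -0.065 to 0.24 at Postn, -0.075 to 0.24 at Omd, -0.53 to 0.056 at Phospho1 and -0.38 to 0.040 at Enpp1.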
